A study of Mus musculus with 17 samples.

Results

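One library of this mouse series had a cerebellum-like RNA profile, and it is described here against the 6 driver-only control libraries from frontal cortex (Ct). It is 1 of 16 distinct libraries. Its values were deposited under 2 labels, as dTg replicate 1 and as the only NTg sample, and the 2 deposits are identical for all 46073 features, 24415 of them above 0, so it was counted once. The library was selected on measured values: it had been singled out in earlier work on these files by its high levels of Pcp2, Car8, Cbln3, Cbln1 and Gabra6 against the Ct libraries. Those genes, and all others of the same comparison, are therefore given as a description, and with 1 library on one side no difference was tested and none has a replicate check.

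Every mouse in the series is labelled as a male of strain FVB/N, and every source as frontal cortex; age is not given in the sources used here. The 6 Ct libraries are labelled with genotype CamK, the driver alone, without doxycycline. Genotype dTg-211, which joins the driver to a miR-211 transgene, is carried by 7 labelled dTg samples without doxycycline and by 3 dTgDox samples given it for 4 days. The NTg label reads PTRE-miR-211 without CamK, the transgene with no driver. So the labels give the cerebellum-like library 2 genotypes, and which of them it came from cannot be told apart here. The header of the NTg deposit also carries a dTg name. A CamK driver is made to act in forebrain excitatory neurons, which limits the genotype as a model in cerebellar tissue. The labels do not say whether the 6 Ct libraries came from 6 mice. The labelled protocol speaks of brain regions including frontal cortices, without saying which others.

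The data went against the tissue label of this library. Camk2a (ENSMUSG00000024617), the kinase of forebrain excitatory synapses, had 28.3 FPKM in this library and 602 to 917 FPKM in Ct, and Tbr1, a transcription factor of cortical projection neurons, had 0.0372 and 37.8 to 60.7 FPKM. FPKM is the number of sequenced fragments per kilobase of transcript, scaled to the reads of the library. Mir211 was listed at 0 in this library and in all 6 Ct libraries. Trpm1, whose intron holds Mir211, had 0.0569 FPKM here and a Ct median of 0.189 FPKM. Levels of both genes in the other dTg and the dTgDox libraries are not given here, so no genotype is read from them.

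The cerebellum is built from a few repeated cell types. Granule cells, the most numerous neurons of the brain, send parallel fibers to Purkinje cells, whose inhibitory output is the only one of the cerebellar cortex. Molecular layer and Golgi interneurons, unipolar brush cells and Bergmann glia, a specialised astrocyte, complete the circuit. The frontal cortex is instead built from layered glutamatergic pyramidal neurons and from GABA interneurons born in the ventral forebrain.

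Promoters of 4 genes are shown because they mark the extremes of the comparison: Pcp2 for Purkinje cells, Cbln3 and Gabra6 for granule cells, and Nrgn for cortical pyramidal neurons. Each runs 5′ to 3′ on the strand of the gene, from 250 bases before the start to 50 after it, taken from RefSeq on build GRCm38.p6. Capitals mark AGGTCA, a half-site of nuclear receptors, among them the ROR family.
Pcp2, chr8:3625498-3625797, minus strand: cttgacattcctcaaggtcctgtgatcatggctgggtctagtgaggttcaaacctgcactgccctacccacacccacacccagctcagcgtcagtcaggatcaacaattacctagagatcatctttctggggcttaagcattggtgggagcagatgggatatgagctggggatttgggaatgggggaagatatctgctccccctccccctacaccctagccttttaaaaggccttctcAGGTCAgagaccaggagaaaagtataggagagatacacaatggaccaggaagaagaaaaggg
Cbln3, chr14:55884207-55884506, minus strand: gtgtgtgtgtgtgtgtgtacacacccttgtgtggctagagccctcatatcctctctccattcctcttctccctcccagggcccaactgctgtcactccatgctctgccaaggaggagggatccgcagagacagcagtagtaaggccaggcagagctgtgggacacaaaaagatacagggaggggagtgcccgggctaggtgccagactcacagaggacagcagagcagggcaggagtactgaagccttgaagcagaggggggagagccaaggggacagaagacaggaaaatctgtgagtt
Gabra6, chr11:42321023-42321322, minus strand: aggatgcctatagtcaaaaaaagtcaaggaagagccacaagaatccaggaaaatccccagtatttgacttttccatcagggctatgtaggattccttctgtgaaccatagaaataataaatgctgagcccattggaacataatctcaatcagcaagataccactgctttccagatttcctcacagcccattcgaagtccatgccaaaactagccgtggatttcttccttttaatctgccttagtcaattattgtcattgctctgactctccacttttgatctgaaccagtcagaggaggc
Nrgn, chr9:37552696-37552995, minus strand: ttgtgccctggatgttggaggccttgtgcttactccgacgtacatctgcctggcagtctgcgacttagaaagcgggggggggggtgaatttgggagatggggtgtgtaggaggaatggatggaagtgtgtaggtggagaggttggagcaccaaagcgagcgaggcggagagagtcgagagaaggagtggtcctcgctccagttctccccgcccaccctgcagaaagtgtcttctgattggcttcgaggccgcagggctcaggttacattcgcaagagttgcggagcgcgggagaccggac
The AGGTCA of Pcp2 begins 12 bases before the start, and the other 3 windows hold none on either strand. CG pairs numbered 1 in Pcp2, 2 in Cbln3, 2 in Gabra6 and 17 in Nrgn. AGGTCA, searched on both strands, occurred in 81 of 620 promoters of genes at least 2-fold above the Ct range (13.1%), in 86 of 877 of those at least 2-fold below it (9.81%) and in 1321 of 11087 of all genes tested (11.9%). The median number of CG pairs was 16 in both of the first sets and 20 in all genes tested. The shares of both called sets lie near that of all genes tested. Of the other genes shown at the extremes, Fat2 holds AGGTCA 31 bases before its RefSeq start on the opposite strand. That window, chr11:55312208-55312507 on the minus strand, lies inside the GENCODE M21 span of Fat2, 55250609 to 55336564. It may therefore not be the promoter in use.

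The comparison covered 16965 genes with at least 1 FPKM in the cerebellum-like library or as the Ct median. Levels were compared as log2(FPKM + 0.5), and a gene was called where this library lay at least 1 log2 unit, which is 2-fold on that scale, beyond the nearest Ct library. Above the Ct range by that distance were 1045 genes (6.16%), and below it were 1303 (7.68%). At any distance, 6843 genes (40.3%) lay above all 6 Ct libraries and 5444 (32.1%) below all of them. With summed FPKM made equal, the counts were 1412 above and 1272 below at 2-fold, and 9027 above and 4379 below at any distance. The shares of genes tested are the background for each group of genes below. The median difference over all 16965 genes, library minus Ct mean, was 0.08 on the log2 scale. Rescaling each library to the same summed FPKM raised this median, over the genes then tested, by 0.171 log2 units. Of the 239 genes named, 9 lay on another side of the range's edge under this scaling or under the median ratio of each library: Camk2b, Foxc1, Gabbr1, Gabbr2, Gabrg1, Gna11, Gnaq, Htr1b and Sos1.

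The same rule gave far smaller counts for the other libraries. Each of dTg replicates 2 to 7, set against Ct alone, had 59 to 114 genes at least 2-fold above and 7 to 19 below. The 3 dTgDox libraries had 219 to 284 above and 114 to 176 below. Of the 1045 genes above Ct, 779 (74.5%) were also at least 2-fold above all 15 other libraries. Of the 1303 below, 1004 (77.1%) were also at least 2-fold below all 15. Across genes, the log2 levels of the cerebellum-like library correlated with the Ct libraries at r = 0.850 to 0.859, and the Ct libraries with each other at 0.946 to 0.956, as a description over genes that share these libraries. Its summed FPKM was 595615, against 628549 to 690919 in Ct, and its relative depth, estimated from the step of 1 read in single-exon genes and set to 1, lay inside the Ct values of 0.886 to 1.20.

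**Figure D1:**
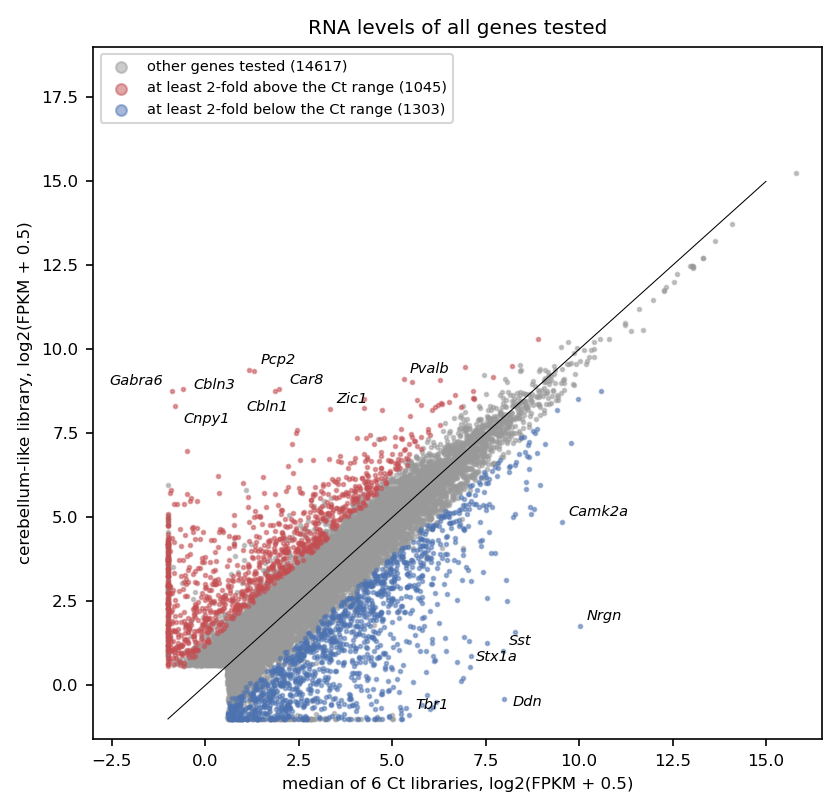
Level of each of 16965 genes in the cerebellum-like library (vertical) against the median of the 6 Ct libraries (horizontal), both as log2(FPKM + 0.5), with the line of equal level. Red points lie at least 2-fold above the highest Ct library (1045 genes) and blue points at least 2-fold below the lowest (1303 genes). Cbln3, Gabra6, Pcp2 and Car8 stand at the upper left and Nrgn and Ddn at the lower right.

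The distances reached far beyond 2-fold. At least 4-fold above were 357 genes and at least 4-fold below 489. At least 16-fold were 82 on each side, and at least 64-fold were 11 above and 14 below. The 2-fold line fell among genes with nearly equal distances. Esyt1 was just past it, at 6.45 FPKM against a highest Ct value of 2.97, and Mtss1l just short of it, at 101 against 50.4 FPKM. On the low side Sult4a1 was just past it, at 78.3 FPKM against a lowest Ct value of 157, and Sub1 just short of it, at 71.1 against 143 FPKM. Of 1136 genes that passed the filter only through this library, 410 were among the 1045 above, and of 1171 that passed only through Ct, 532 were among the 1303 below. Ct had a median of 0 for 117 of the genes above, and 59 of the genes below were listed at 0 here.

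Hereafter the value of a gene in the cerebellum-like library is given first, against the lowest, the median and the highest of the 6 Ct libraries. A gene said to lie above or below the Ct range did not overlap with any Ct library. Coordinates are those of GENCODE M21 on GRCm38.

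The 5 marker genes lay above the Ct range by 5.42 to 9.15 log2 units. Cbln3 (chromosome 14, 55878913 to 55884392, minus strand), a cerebellin that granule cells secrete, had 447 against 0.117, 0.165 and 0.29 FPKM. Gabra6 (chromosome 11, 42306437 to 42321072, minus strand), the GABA-A receptor subunit of granule cells, had 430.4 against 0, 0.0345 and 0.316 FPKM. Pcp2 (chromosome 8, 3623371 to 3625545, minus strand), a G protein regulator of Purkinje cells also called L7, had 661 against 1.74, 1.98 and 3.11 FPKM. All 6 Ct libraries were low for each of these, with no value above 3.11 FPKM. Car8 (chromosome 4, 8143362 to 8239041, minus strand), which binds the IP3 receptor in Purkinje cells, had 455 against 2.51, 3.45 and 3.70 FPKM. Cbln1 (chromosome 8, 87468405 to 87472609, minus strand), the cerebellin that joins parallel fibers to Purkinje cell spines, had 436 against 1.46, 3.15 and 9.72 FPKM, with the widest Ct spread of the 5. Summed over the 5 genes, FPKM was 2430 here, 6.84 to 14.1 across Ct, 8.05 to 29.03 across the other 6 dTg libraries, and 9.27 to 12.4 in dTgDox.

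Among the 15 protein-coding genes furthest above the Ct range, the others include regulators of development, adhesion molecules and genes better known outside the brain. Cnpy1, a modulator of FGF signalling at the midbrain-hindbrain boundary, had 315 against 0.0376, 0.0667 and 0.349 FPKM. Its neighbour En2, the homeobox factor that patterns the same territory, had 51.2 against 0.069, 0.217 and 0.284 FPKM. The pair are neighbours on chromosome 5, where En2 spans 28165694 to 28172166 on the plus strand and Cnpy1 28200819 to 28245806 on the minus strand. The next gene, Rbm33, had 23.6 against 13.1, 14.1 and 17.9 FPKM and was above Ct by only 0.39 log2 units. Fat2, a giant protocadherin of granule cell parallel fibers, had 55.7 against 0.019, 0.033 and 0.0756 FPKM. Ppp1r17, a phosphatase inhibitor of Purkinje cells that cGMP signalling activates, had 126 against 0.0246, 0.205 and 0.969 FPKM. Dao, the D-amino acid oxidase that degrades D-serine in hindbrain astrocytes, had 43.9 against 0.207, 0.349 and 0.508 FPKM.

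Several of the furthest genes are known mainly from immune cells or cell death. Crtam, an adhesion molecule of activated lymphocytes, had 52.8 against 0, 0.0228 and 0.0727 FPKM. Il20rb, a chain of receptors for interleukins, had 41.98 against 0.0445, 0.173 and 0.303 FPKM. Bcl2l15, a Bcl-2 relative, had 46.9 against 0.162, 0.271 and 0.416 FPKM. None of these overlapped with Ct, although microglial genes as a group were lower in this library, as shown further on. Iltifb, a near-identical copy of Il22, had 42.1 against 0, 0.0613 and 0.388 FPKM, and reads of the 2 copies may not be separable. Arhgef33, a guanine nucleotide exchange factor, had 44.3 against 0.121, 0.246 and 0.348 FPKM and overlaps Sos1 and Gm10190 on the opposite strand. Gm10190 had 74.8 against 0, 0.772 and 1.36 FPKM, above Arhgef33 here, so its reads and those of Arhgef33 may not be separable. Bcl2l15 lies next to Ptpn22, a lymphocyte phosphatase, on chromosome 3, and Ptpn22 had 23.4 against 0.114, 0.299 and 0.759 FPKM. Their neighbours on either side stood closer to Ct: Ap4b1, upstream, had 7.64 against 5.58, 5.85 and 6.11 FPKM, and Rsbn1, downstream, had 13.1 against 5.01, 5.89 and 7.28 FPKM.

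The 15 genes furthest below the Ct range were those of cortical pyramidal cells, their dendrites and cortical interneurons. Ddn, dendrin of the postsynaptic dendrite, had 0.248 against 216, 255 and 345 FPKM. Nrgn (chromosome 9, 37544492 to 37552904, minus strand), neurogranin, which binds calmodulin in dendritic spines, had 2.87 against 772, 1050 and 1471 FPKM. Sst, the peptide somatostatin of cortical interneurons, had 1.54 against 218, 249 and 272 FPKM. Each of these was abundant in all 6 Ct libraries and close to the floor here. Icam5, whose product telencephalin is a dendritic adhesion molecule of the telencephalon, had 0.164 against 50.7, 55.2 and 62.8 FPKM. None of the 6 Ct libraries was below 50.7 FPKM for these genes. Gda, the guanine deaminase cypin that shapes dendrites, had 0.141 against 58.05, 67.9 and 72.3 FPKM. Kcnj4, the inward rectifier Kir2.3, had 0.209 against 63.8, 71.9 and 78.2 FPKM. Ptk2b, a calcium-dependent tyrosine kinase of forebrain synapses, had 0.655 against 104, 118 and 134 FPKM. Stx1a, a syntaxin of the release machinery, had 0.95 against 116, 134 and 185 FPKM. Ctxn1, Camkv, Crym, Enc1 and Lamp5, with Tbr1, were also among the 15, and the values of the first 5 here were 2.52, 1.89, 0.119, 1.33 and 0.591 FPKM, under lowest Ct values of 244.6, 176, 45.2, 122 and 64.7 FPKM. Over the 15 genes, this library held at most 1.02% of the Ct median, with a middle value of 0.297%.

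**Figure D2:**
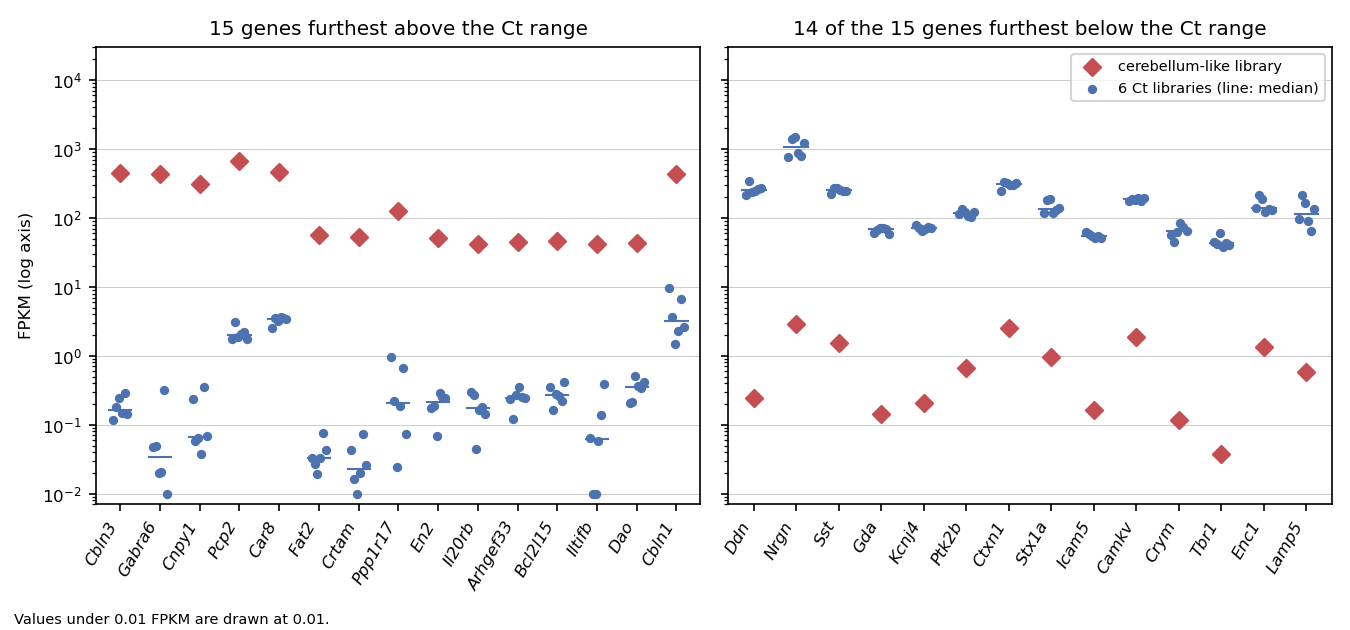
FPKM on a log axis of the 15 protein-coding genes furthest above (left) and 14 of the 15 furthest below (right) the Ct range. Red diamonds are the cerebellum-like library, blue points the 6 Ct libraries and blue lines their median. No diamond lies within the blue points, and values under 0.01 FPKM are drawn at 0.01.

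The cell types of the cerebellar cortex were represented in turn. In bulk tissue, more cells of a type and more RNA per cell cannot be told apart. Of 24 Purkinje cell genes, all past the filter, 21 lay above the Ct range, 18 of them by at least 2-fold, and 1 lay below it, by less than 2-fold, and the median difference was 2.76 log2 units against 0.08 over all genes. The list includes Pcp2 and Car8, on which the library was selected, and 4 of the 24 passed the filter only through this library. Lhx1, a LIM factor of Purkinje cells, had 20.3 against 0, 0.0352 and 0.0737 FPKM. Homer3, a scaffold of metabotropic receptors in Purkinje spines, had 194 against 3.64, 4.98 and 7.44 FPKM. Slc1a6, the glutamate transporter EAAT4 of Purkinje cells, had 91.1 against 3.66, 4.16 and 4.86 FPKM. These 3 did not overlap with Ct. Calb1, the calcium buffer calbindin of Purkinje cells and of many cortical neurons, had 357 against 30.9, 50 and 56.7 FPKM. Foxp2, a transcription factor found in cortex too, lay inside the Ct range, with 2.31 against 2.08, 2.99 and 7.75 FPKM.

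All 20 granule cell genes passed the filter, and 20 lay above the Ct range, all of them by at least 2-fold, and 0 lay below it. The median difference over the 20 was 3.71, and 6 of them passed only through this library. The list includes Cbln1, Cbln3 and Gabra6, on which the library was selected. Il16, a cytokine precursor with a neuronal form in granule cells, had 51.95 against 0.589, 0.782 and 1.18 FPKM. Neurod1, a helix-loop-helix factor of granule cell maturation, had 182 against 3.64, 4.87 and 6.14 FPKM. Mab21l1, a developmental regulator, had 25.6 against 0.0612, 0.291 and 0.469 FPKM. Ct libraries were low for these and for Fat2, Cbln3 and Gabra6. In contrast, Calb2, calretinin, and Reln, reelin, which cortical interneurons also make, were closer to Ct, with 294 against 4.77, 25.98 and 102 FPKM and 85.4 against 12.8, 22.6 and 38.8 FPKM.

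Interneurons and glia of the cerebellum followed with smaller differences. Of 12 genes of interneurons and unipolar brush cells, 11 passed the filter, 9 lay above the Ct range, 6 of them by at least 2-fold, and 1 lay below it, by at least 2-fold, and the median was 2.19. Only through this library passed 4 of the 11. Slc6a5, the glycine transporter of inhibitory Golgi cells and nuclei, had 7.21 against 0.00525, 0.0169 and 0.0234 FPKM. Tfap2b, a factor of molecular layer interneuron precursors, had 12.2 against 0.36, 0.482 and 0.556 FPKM. Pvalb, parvalbumin, made by Purkinje cells and molecular layer interneurons and by basket cells of cortex, had 552 against 23.7, 38.98 and 55.9 FPKM. Ct held some Pvalb in every library, but little Slc6a5. Eomes, a marker of unipolar brush cells, had 4.44 against 0.0216, 2.07 and 14.7 FPKM and so lay inside a Ct range that was itself wide. Grm2, a receptor of Golgi and unipolar brush cells, lay below the range, with 6.14 against 12.9, 23.6 and 28.2 FPKM. Of 9 Bergmann glia genes, 7 lay above the Ct range, 6 of them by at least 2-fold, and 1 lay below it, by less than 2-fold, with a median of 1.56. Just 1 of the 9 passed only through this library. Gdf10, a BMP-like ligand of Bergmann glia, had 72.95 against 1.98, 2.42 and 3.15 FPKM, and A2m, alpha-2-macroglobulin, had 20.1 against 0.305, 0.408 and 0.727 FPKM. Fabp7, a lipid-binding protein of radial glia, lay inside the Ct range, with 37.3 against 16.4, 33.1 and 134 FPKM, and Etv5 was the 1 member below it, with 17.01 against 27.6, 36.9 and 43.4 FPKM.

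Genes of the hindbrain outside the cerebellar cortex were sparse. Of 17 genes of cerebellar nuclei, monoamine and cholinergic nuclei, 3 reached 1 FPKM in this library or as the Ct median: Slc6a5, Slc17a6 and Spp1. Slc17a6, the glutamate transporter VGLUT2 of cerebellar nuclei and thalamus, had 4.17 against 2.01, 4.87 and 10.1 FPKM, and Spp1, osteopontin, had 13.1 against 4.21, 6.49 and 16.1 FPKM, both inside the range. None of the 19 Hox genes listed, which mark the hindbrain behind the cerebellum and the spinal cord, passed the filter, and they summed to 0.305 FPKM here and 0.053 to 0.169 FPKM in Ct.

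Regional transcription factors lay on both sides of Ct. Of 26 factors of hindbrain and cerebellar patterning, 19 passed the filter, 18 lay above the Ct range, 17 of them by at least 2-fold, and 1 lay below it, by less than 2-fold, and the median was 3.20. Of the 19, 11 passed only through this library, and without a filter the median was 2.46. Besides En2 and Lhx1, those above included Zic1, a zinc finger factor of granule cells, with 296 against 4.47, 9.59 and 15.4 FPKM, and Barhl2, a homeobox factor, with 17.4 against 0, 0.137 and 0.587 FPKM. Zic1 and Zic4 lie on opposite strands of chromosome 9 with overlapping spans, and Zic2 and Zic5 side by side on chromosome 14. Zic2 had 104 against 3.37, 5.32 and 7.27 FPKM. Zic4 and Zic5 were lower, at 32.5 and 20.6 FPKM, and lay above Ct ranges of 1.57 to 4.40 and 0.89 to 2.29 FPKM. The 1 factor below the range was Foxc1, of the meninges, with 1.15 against 1.19, 1.57 and 2.29 FPKM, inside the range with summed FPKM made equal.

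All 12 telencephalic factors passed the filter, and 0 lay above the Ct range, and 12 lay below it, 11 of them by at least 2-fold, with a median of -4.23. All 12 passed the filter only through Ct. Lhx2, a LIM factor of the cortical primordium, was listed at 0 here and had 19.4 to 30.9 FPKM in Ct. Emx1, the homeobox factor of the dorsal telencephalon, had 0.0268 against 8.28, 11.2 and 15.1 FPKM. Egr3, an activity-regulated factor placed in this list, had 0.0479 against 22.2, 37.1 and 55.8 FPKM. No Ct library was below 8.28 FPKM for any of these 3 genes.

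Forebrain neurons were low across the glutamatergic and the GABA classes. All 20 genes of excitatory forebrain neurons passed, 3 lay above the Ct range, 0 of them by 2-fold, and 17 lay below it, 16 of them by at least 2-fold, and the median was -3.87. Only through Ct passed 5 of the 20. Chrm1, the M1 muscarinic receptor, had 0.129 against 35.8, 40.7 and 49.8 FPKM. Kcnv1, a silent potassium channel subunit, had 0.0362 against 26.6, 29.7 and 41.5 FPKM. Slc30a3, the zinc transporter of glutamatergic vesicles, had 1.15 against 55.2, 69.3 and 119.8 FPKM. Slc17a7, the glutamate transporter VGLUT1, which granule cells share, was closer to Ct, with 182 against 400.3, 450.3 and 588 FPKM. The 3 members above the range were Nptx1, a neuronal pentraxin, with 150.1 against 57.7, 60.4 and 89.7 FPKM, Bhlhe22, with 23.9 against 9.39, 13.1 and 15.6 FPKM, and Neurod2, with 41.3 against 22.3, 27.2 and 36.7 FPKM.

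Most layer markers lay below Ct. Of 11 upper-layer genes past the filter, of 12 listed, 2 lay above the Ct range, 0 of them by 2-fold, and 9 lay below it, 5 of them by at least 2-fold, with a median of -1.40. Rasgrf2, a Ras exchange factor, had 1.03 against 33.7, 38.8 and 65.4 FPKM, and Mef2c, an activity-dependent factor, had 9.91 against 152, 172 and 253 FPKM. Of 13 deep-layer genes measured, 2 lay above the Ct range, 1 of them by at least 2-fold, and 10 lay below it, 8 of them by at least 2-fold, with a median of -1.61. Passing the filter only through Ct were 6 of the 13 deep-layer and 2 of the 11 upper-layer genes. Fezf2, which specifies subcortical projection neurons, had 0.0142 against 6.25, 11.2 and 16.9 FPKM, and its distance of -3.71 log2 units became -4.42 without Ct replicate 6. Bcl11b, its partner Ctip2, had 0.165 against 9.08, 14.8 and 21.1 FPKM. Etv1 stood out above the range, with 118 against 14.3, 18.4 and 27.3 FPKM, and it is a gene of granule cells as well as of deep layers.

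GABA neurons were divided by origin. Of 22 forebrain interneuron genes past the filter, of 23 listed, 2 lay above the Ct range, 1 of them by at least 2-fold, and 18 lay below it, 15 of them by at least 2-fold, with a median of -3.19. Of the 22, 11 passed only through Ct. Vip, a peptide of cortical interneurons, had 0.0255 against 25.1, 29.7 and 37.6 FPKM. Dlx1, a homeobox factor of ventral forebrain origin, had 0.0155 against 13.5, 23.8 and 79.03 FPKM. By contrast, the genes that every GABA neuron uses lay inside or near the Ct range. Gad1, which makes GABA, had 249 against 169, 214 and 398 FPKM. Slc32a1, which loads it into vesicles, had 40.7 against 25.1, 33.9 and 46.3 FPKM. Gad2, the second enzyme of this kind, had 27.4 against 31.8, 43.1 and 66.98 FPKM. The 2 members above the range were Nos1, neuronal nitric oxide synthase of granule cells and of a cortical interneuron class, with 15.2 against 3.96, 5.39 and 6.68 FPKM, and Maf, with 13.1 against 4.33, 5.37 and 7.31 FPKM. Of 17 striatal genes past the filter, of 20 listed, 0 lay above the Ct range, and 11 lay below it, 9 of them by at least 2-fold, and the median was -2.0. Passing only through Ct were 7 of these 17. Adora2a had 0.815 against 0.665, 1.97 and 29.5 FPKM and Ppp1r1b had 101 against 44.5, 65.1 and 320.4 FPKM, both inside the Ct range.

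**Figure D3:**
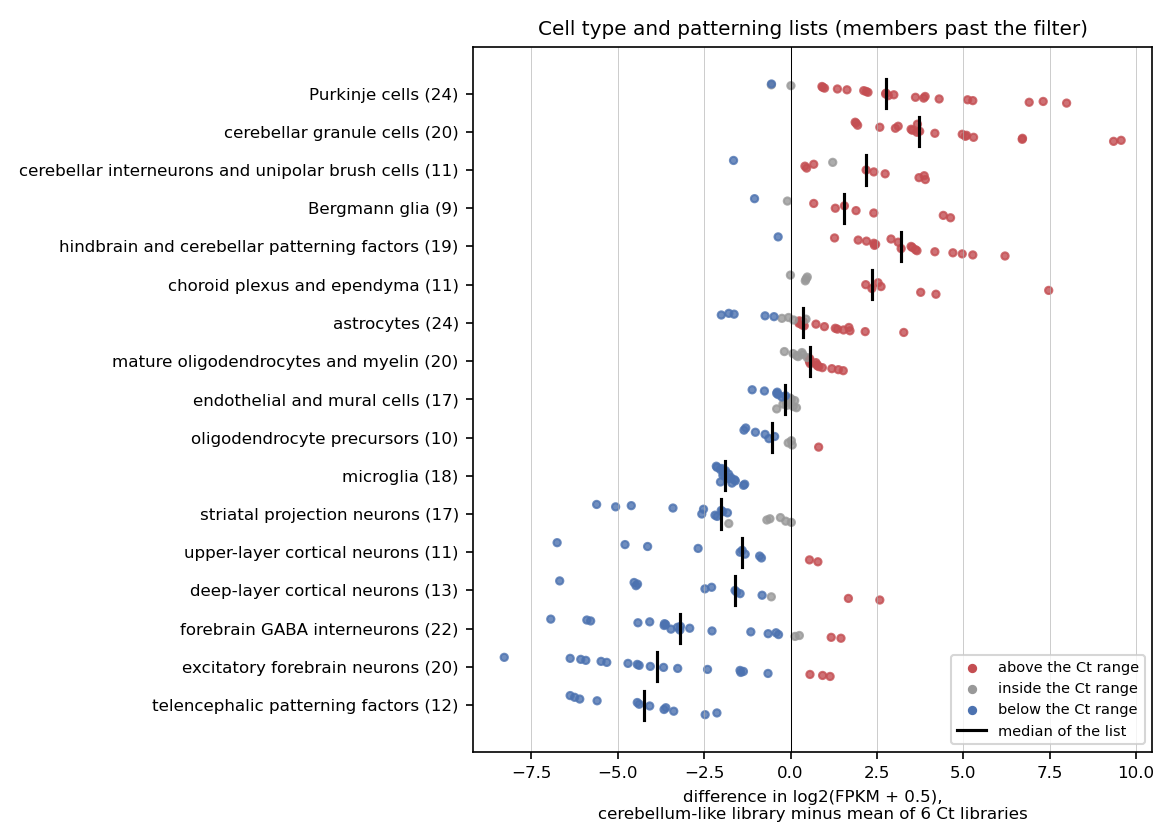
Difference in log2(FPKM + 0.5), cerebellum-like library minus the mean of the 6 Ct libraries, for each member of 17 gene lists that passed the filter (number in brackets). Red, grey and blue points lie above, inside and below the Ct range, and black bars are list medians, which run from 3.71 for granule cells to -4.23 for telencephalic factors.

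Glial and vascular genes differed by class. Of 24 astrocyte genes, 15 lay above the Ct range, 7 of them by at least 2-fold, and 5 lay below it, 3 of them by at least 2-fold, and the median was 0.35. Agt, angiotensinogen, had 36.4 against 1.33, 3.63 and 6.01 FPKM. S100b, a calcium-binding protein, had 293 against 55.8, 66.1 and 75 FPKM. Aqp4, the water channel of astrocyte endfeet, had 88.5 against 20.6, 25.5 and 33.1 FPKM. On the low side, Slc1a2, the forebrain glutamate transporter GLT-1, had 80.8 against 231, 279.8 and 344 FPKM, and Mfge8, a secreted bridge for phagocytosis, had 24.4 against 67.7, 79.8 and 82.7 FPKM. Slc1a3, the transporter GLAST shared with Bergmann glia, was instead above, with 369.7 against 134, 147 and 171 FPKM. Gfap lay inside the range, with 42.1 against 19.02, 27.5 and 49 FPKM. Astrocyte genes therefore lay on both sides of Ct.

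Myelin genes lay modestly high and microglial genes low. Of 20 genes of mature oligodendrocytes, 13 lay above the Ct range, 0 of them by 2-fold, and 0 lay below it, with a median of 0.56. Trf, transferrin, had 318 against 54.9, 118 and 167 FPKM. Mbp, myelin basic protein, had 1183 against 496, 837 and 1079 FPKM. The 20 genes together summed to 3032 FPKM here and 1249 to 2727 in Ct. In the other 6 dTg libraries they summed to 1165 to 3091 FPKM and in dTgDox to 3164 to 4779. Their sum therefore did not set this library apart in the series. Of 10 precursor genes, 1 lay above the Ct range, by less than 2-fold, and 6 lay below it, 0 of them by 2-fold, with a median of -0.54. Pdgfra, the receptor that defines precursors, had 3.20 against 6.68, 8.55 and 10.8 FPKM.

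All 18 microglial genes lay below the Ct range, all by at least 2-fold, with a median of -1.88. Tmem119, a microglial membrane protein, had 1.95 against 9.21, 9.96 and 12.03 FPKM. Csf1r, the receptor for survival factors, had 6.09 against 22.1, 26.1 and 28.1 FPKM. P2ry12, the ADP receptor of surveying microglia, had 6.18 against 21.1, 29.03 and 30.1 FPKM. The 18 genes together summed to 121 FPKM here, 372 to 482 in the Ct group, and 425 to 477 in the other 6 dTg libraries. The spread of distances was narrow, from -1.99 for Tmem119 to -1.004 for Tyrobp. Of 17 endothelial and mural genes, 0 lay above the Ct range, and 7 lay below it, 0 of them by 2-fold, and the median was -0.15. Cldn5, the tight junction claudin, had 15.4 against 14.6, 20.9 and 26.5 FPKM, inside the range.

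Choroid plexus genes were high but did not set this library apart in the series. Of 11 genes past the filter, of 13 listed, 7 lay above the Ct range, 6 of them by at least 2-fold, and 0 lay below it. Of the 11, 6 passed only through this library. Ttr, the thyroxine carrier of choroid plexus, had 665 against 0.661, 1.76 and 86.7 FPKM. Without Ct replicate 6, the highest, its distance above the range was 7.36 log2 units in place of 2.93. In the other 9 libraries Ttr ran from 0.407 to 1907 FPKM, so it did not exceed all of them. Otx2, a factor of choroid plexus and midbrain, had 10.3 against 0.0509, 0.218 and 0.844 FPKM and reached 0.0176 to 6.10 FPKM in the other 9. The whole list summed to 719 FPKM here, 5.56 to 106 in Ct and 39.4 to 2008 in dTgDox. The part of ventricle tissue in the levels of this library was not tested.

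GABA-A receptors are chloride channels of 5 subunits, whose alpha subunit sets their pharmacology. Of 21 GABA-A and GABA-B genes, 15 passed the filter, and 4 lay above the Ct range, 2 of them by at least 2-fold, and 8 lay below it, 4 of them by at least 2-fold. The 2 called above were Gabrd and Gabra6, and the library was selected on Gabra6. Gabra6 passed the filter only through this library, and Gabra5 and Gabrg3 only through Ct. Gabra6 made up 64.1% of the summed FPKM of the 6 alpha subunits here and at most 0.127% in Ct. Gabrd, the delta subunit of extrasynaptic receptors, had 117 against 22.3, 31.6 and 42.5 FPKM. Gabrb2 was above the range too, with 77.4 against 37.6, 44.3 and 57.6 FPKM. Gabra2 lay inside the range, with 23.5 against 12.2, 21.4 and 33.2 FPKM.

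The forebrain alpha subunits were low. Gabra5, abundant in hippocampus and deep cortex, had 0.337 against 18.2, 25.7 and 32.1 FPKM. Gabra3 had 3.54 against 52.1, 55.1 and 59.9 FPKM, and Gabra4, the partner of delta in forebrain, had 10.7 against 30.9, 40.8 and 46.4 FPKM. No Ct library came near these values. Among the other subunits, Gabrb1 had 9.08 against 13.5, 15.2 and 18.3 FPKM, and Gabrg3 had 0.338 against 4.55, 5.23 and 6.68 FPKM. Gabrg1 was just under the range, with 7.21 against 7.81, 9.34 and 13.96 FPKM, and inside it with summed FPKM made equal. The GABA-B subunits stayed near Ct, with 302 against 314, 346 and 424 FPKM for Gabbr1, which lay inside the range with summed FPKM made equal, and 47.3 against 46.7, 50.6 and 72.6 FPKM for Gabbr2.

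Many GABA-A genes lie in clusters. On chromosome 11, within 42306437 to 42629028, Gabra6 and Gabrb2 lay above the Ct range. On chromosome 7, within 56716465 to 57510059, Gabra5 and Gabrg3 lay below. On chromosome 5, within 70751047 to 72149037, Gabra4, Gabrb1 and Gabrg1 lay below and Gabra2 inside. Gabra6 was above by 9.04 log2 units and its neighbour Gabrb2 by 0.42.

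**Figure D4:**
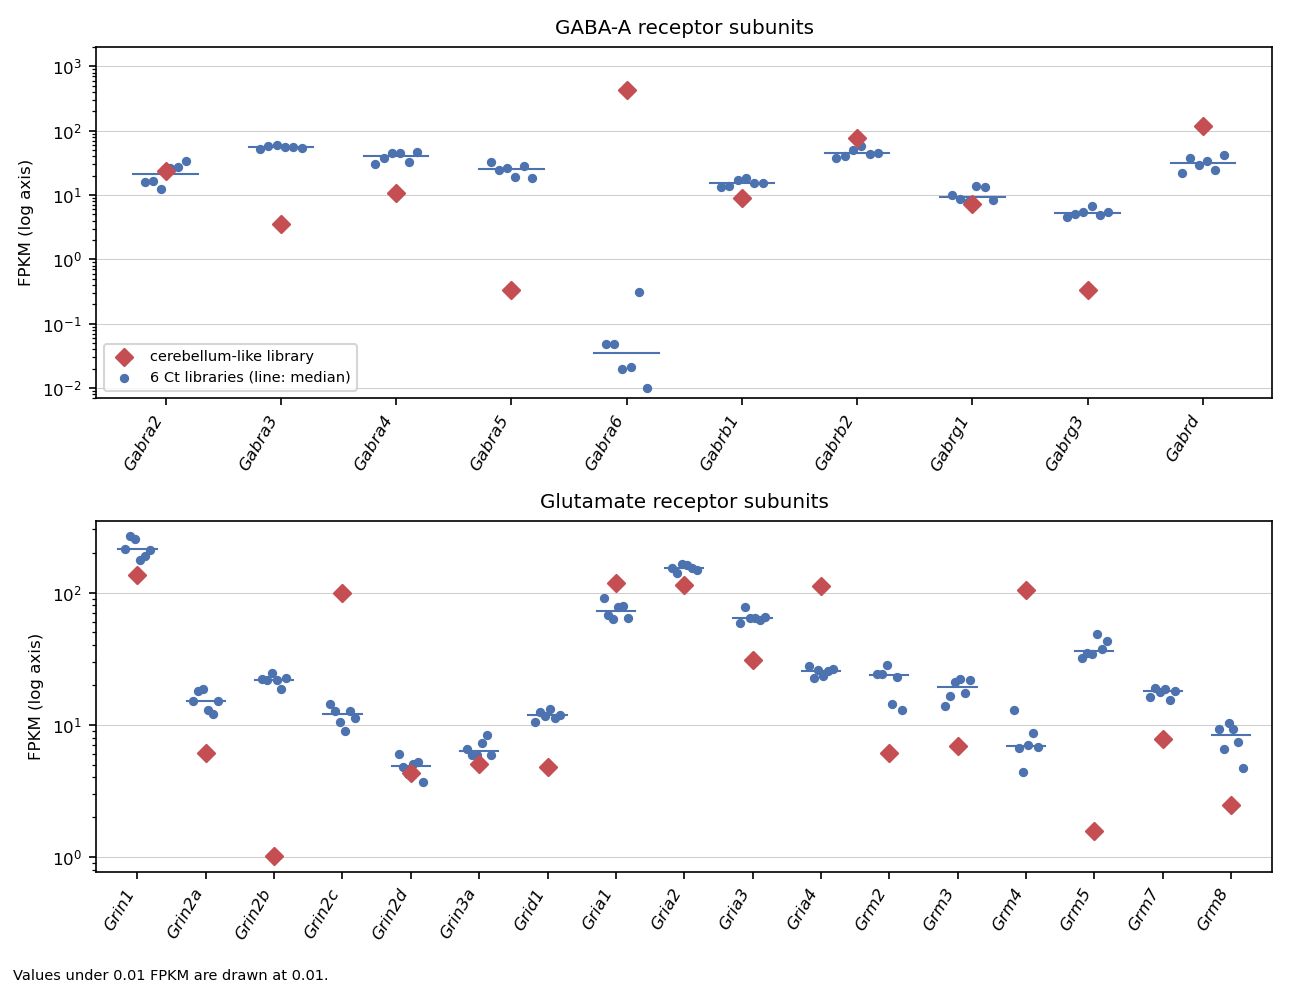
FPKM on a log axis of GABA-A receptor subunits (top) and of NMDA, delta, AMPA and metabotropic glutamate receptors (bottom). Red diamonds are the cerebellum-like library, blue points the 6 Ct libraries and blue lines their median. Gabra6, Grin2c, Gria4 and Grm4 stand above the Ct points and Gabra5, Gabra3, Grin2b and Grm5 below them.

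NMDA receptors join the obligatory Grin1 subunit with Grin2 subunits that set their kinetics. Grin2c, the subunit of mature granule cells, had 99.1 against 8.98, 11.98 and 14.4 FPKM. Grin2b, the main forebrain subunit, had 1.03 against 18.5, 21.9 and 24.5 FPKM, and Grin2a had 6.14 against 12, 15.1 and 18.7 FPKM. As a share of the summed FPKM of the 4 Grin2 genes, Grin2c was 89.6% here and 18.2% to 26.3% in Ct, and Grin2b was 0.930% here and 38.1% to 44.6% in Ct. Grin1 was lower by less, with 136 against 175, 212 and 265 FPKM. Grin2d lay inside the range, with 4.32 against 3.68, 4.92 and 6.04 FPKM, and Grin3a just below it, with 5.02 against 5.88, 6.29 and 8.38 FPKM. Grin3b, in the family but under the filter, had 0.424 FPKM here and 0.0248 to 0.0999 FPKM in Ct. Of the delta receptors, Grid1 of forebrain had 4.77 against 10.6, 11.8 and 13.1 FPKM, below the range.

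AMPA and kainate receptors are the fast glutamate channels. Of 9 genes, 4 lay above the Ct range, 1 by at least 2-fold, and 4 lay below it, 1 by at least 2-fold. Over all genes tested, 40.3% lay above and 32.1% below, and 6.16% and 7.68% by at least 2-fold. These counts therefore do not set the family apart. Gria4, abundant in granule cells and Bergmann glia, had 112 against 22.5, 25.7 and 27.7 FPKM and made up 29.9% of the summed FPKM of the 4 AMPA subunits here and 7.13% to 8.72% in Ct. Gria3 had 30.7 against 59.2, 64.2 and 77.9 FPKM, and Gria1 had 118 against 63.04, 72.6 and 90.8 FPKM. Grik5, the high-affinity kainate subunit, had 18.9 against 58.1, 61.3 and 70.1 FPKM, and Grik2 had 33.8 against 11.7, 15.6 and 17.8 FPKM, on the other side of Ct.

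Auxiliary subunits of these receptors lay mostly below Ct. Of 15 genes, 5 lay above the Ct range, 2 of them by at least 2-fold, and 8 lay below it, all of them by at least 2-fold, with a median of -1.49. Neto1, a kainate and NMDA receptor partner, had 0.655 against 18.7, 19.8 and 23.2 FPKM. Cnih3, a cornichon, had 1.98 against 30.1, 40.9 and 49.6 FPKM. Cacng3, a forebrain TARP, had 3.92 against 37.7, 44.3 and 62.9 FPKM, and Shisa7 had 4.02 against 37.7, 39.6 and 46.9 FPKM. Shisa6, of the same family as Shisa7, was instead above, with 33.8 against 2.54, 3.56 and 4.42 FPKM, although the other 9 libraries ran from 2.06 to 30.97 FPKM. Cacng2, stargazin, whose loss impairs cerebellar granule cells, had 27.04 against 12.7, 13.7 and 18.4 FPKM, above the range by less than 2-fold.

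Metabotropic glutamate receptors also divided. Of 7 genes past the filter, of 8 listed, 2 lay above the Ct range, all of them by at least 2-fold, and 5 lay below it, 2 of them by at least 2-fold, with a median of -1.35. Grm4, the presynaptic receptor of parallel fibers, had 105 against 4.42, 6.93 and 12.9 FPKM. Grm5, the forebrain group I receptor, had 1.56 against 31.8, 35.97 and 48.8 FPKM. Grm4 and Grm5 lay on opposite sides of Ct, without overlap. Grm3 and Grm7 lay below the range, at 6.97 and 7.82 FPKM against 13.9 to 22.4 and 15.4 to 18.9 FPKM.

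Metabotropic glutamate signals in Purkinje cells pass through G proteins, phospholipase C and the IP3 receptor, and genes of this chain were mostly high. Of 12 genes, 9 lay above the Ct range, all of them by at least 2-fold, and 2 lay below it, 0 of them by 2-fold, and the median was 2.21. The 9 include Car8, a marker on which the library was selected, and 1 member passed only through this library. Plcb4, the phospholipase, had 101 against 17.6, 21.2 and 24.5 FPKM. Itpr1, the IP3 receptor, had 324 against 54.2, 74.7 and 85.9 FPKM. Rgs8, which shuts off G proteins, had 304 against 13.7, 18.6 and 31.7 FPKM. The G proteins themselves, Gnaq and Gna11, were slightly below, with 39.1 against 44.9, 47.7 and 54.3 FPKM and 35.9 against 38.5, 42.6 and 43.9 FPKM, and inside the range with summed FPKM made equal.

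The cerebellins and related C1q proteins, secreted organisers of synapses, lay on both sides of Ct. Cbln1 and Cbln3 were above Ct. Cbln2, the cortical cerebellin, had 0.0193 against 14.8, 19.1 and 37.5 FPKM, and Cbln4 had 0.178 against 2.30, 4.06 and 7.44 FPKM. C1ql3, a C1q-like ligand of forebrain, had 2.85 against 19.02, 26.8 and 38.1 FPKM. Of the 9 members past the filter, 4 lay above the Ct range, 2 of them by at least 2-fold, and 5 lay below it, 3 of them by at least 2-fold. The 2 called above are Cbln1 and Cbln3, on which the library was selected. Cbln3 passed the filter only through this library, and Cbln2 and Cbln4 only through Ct. Over all genes tested, 40.3% lay above the range and 32.1% below it, and 6.16% and 7.68% by at least 2-fold. Nrxn2, a presynaptic neurexin, had 171 against 123, 135 and 153 FPKM.

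Acetylcholine, serotonin and catecholamine receptors were mostly low. All 4 muscarinic receptors past the filter, of 5 listed, lay at least 2-fold below the range, with a median of -4.02. Chrm3 had 0.323 against 11.4, 14.2 and 19.2 FPKM, Chrm4 had 0.616 against 11.3, 15.2 and 20.2 FPKM, and Chrm2 had 1.06 against 2.75, 3.81 and 8.05 FPKM. Of 6 nicotinic subunits past the filter, of 13 listed, 2 lay above the Ct range, 0 of them by 2-fold, and 3 lay below it, all of them by at least 2-fold. Chrna4, the high-affinity subunit, had 1.17 against 6.999, 9.78 and 11.99 FPKM, and Chrnb2, its partner, had 24.9 against 17.1, 18.4 and 19.3 FPKM, in opposite directions. Chrna7 had 1.88 against 4.91, 5.99 and 7.30 FPKM. Among the 6 nicotinic subunits, 1 passed the filter only through this library and 1 only through Ct.

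Of 10 serotonin receptors past the filter, of 14 listed, 0 lay above the Ct range, and 8 lay below it, 7 of them by at least 2-fold, with a median of -2.12. Htr2a, the receptor of cortical pyramidal cells, had 0.186 against 10.2, 12.7 and 16.9 FPKM. Htr1a had 0.132 against 3.47, 4.33 and 6.56 FPKM, and Htr5a had 0.97 against 5.43, 5.58 and 6.93 FPKM. Htr1b, found on Purkinje cell terminals and elsewhere, lay inside the range, with 3.46 against 1.56, 1.999 and 3.79 FPKM. Of 11 dopamine and adrenergic receptors past the filter, of 14 listed, 1 lay above the Ct range, by less than 2-fold, and 10 lay below it, 5 of them by at least 2-fold. Adrb1 had 0.84 against 8.77, 10.8 and 16.4 FPKM.

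Receptors of opioids, cannabinoids, adenosine and somatostatin lay below Ct with exceptions. Of 12 genes past the filter, of 15 listed, 2 lay above the Ct range, 1 of them by at least 2-fold, and 9 lay below it, 7 of them by at least 2-fold. Cnr1, the presynaptic cannabinoid receptor abundant on parallel fibers, had 104 against 26.1, 36.99 and 40.3 FPKM. Sstr4 had 0.298 against 7.47, 9.37 and 9.91 FPKM, and Oprd1 had 0.201 against 5.76, 5.89 and 6.58 FPKM. The ligand Sst was low beside its receptors Sstr1, Sstr2 and Sstr4, which had 0.677, 0.292 and 0.298 FPKM here. Of 15 other peptide receptors past the filter, of 26 measured, 1 lay above the Ct range, by less than 2-fold, and 12 lay below it, 7 of them by at least 2-fold. Cckbr, the cholecystokinin receptor of cortex, had 0.385 against 16.9, 25.9 and 32.7 FPKM, and Npy1r had 0.408 against 8.74, 9.36 and 12.1 FPKM. Crhr1, the corticotropin-releasing hormone receptor, was the 1 member above, with 28.4 against 8.54, 12.2 and 15.5 FPKM, while the peptide Crh itself had 0.0324 against 2.77, 4.17 and 8.05 FPKM. 

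Most neuropeptides lay below Ct. Of 21, all past the filter, 0 lay above the Ct range, and 15 lay below it, 12 of them by at least 2-fold, with a median of -3.0. Besides Sst and Vip, Tac2 was listed at 0 here and had 10.9 to 13.1 FPKM in Ct. Tac1 had 0.179 against 14.1, 21.3 and 100.2 FPKM, Pdyn had 0.0296 against 6.21, 10.1 and 30.2 FPKM, and Cck had 37.3 against 361, 445 and 650.5 FPKM. Penk, enkephalin of striatum and of Golgi cells, lay inside a wide Ct range, with 75.2 against 28.9, 60.1 and 266 FPKM. Only through Ct passed 12 of the 21 neuropeptides, 8 of the 10 serotonin receptors and 3 of the 4 muscarinic receptors. So did 10 of the 15 other peptide receptors and 5 of the 11 dopamine and adrenergic receptors. Among receptors of opioids, cannabinoids, adenosine and somatostatin, 7 of the 12 passed only through Ct.

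Calcium-binding proteins and calmodulin kinases lay on both sides of Ct within their families. Of 17 calcium-binding proteins, 7 lay above the Ct range, 6 of them by at least 2-fold, and 10 lay below it, 4 of them by at least 2-fold. Hpcal1 had 162 against 9.23, 16.2 and 20.6 FPKM, while its relatives Hpca, hippocalcin, and Hpcal4 had 39.4 against 254, 409 and 501 FPKM and 8.25 against 222, 264 and 293 FPKM. Of 13 calmodulin kinase genes, 2 lay above the Ct range, 1 of them by at least 2-fold, and 10 lay below it, 3 of them by at least 2-fold. Camk2a made up 8.15% of the summed FPKM of the 4 CaMKII genes here and 63.2% to 73.1% in Ct. Camk2b, the isoform of granule cells, made up 53.7% here and 17.2% to 24.7% in Ct, although its own level was slightly lower, with 186 against 200.3, 213 and 236 FPKM, and inside the range with summed FPKM made equal. Camk4, a nuclear kinase abundant in granule cells, had 88.9 against 16.1, 25.4 and 30.2 FPKM.

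Second messenger enzymes followed. Of 21 genes of cyclic nucleotide signalling past the filter, of 22 measured, 6 lay above the Ct range, 4 of them by at least 2-fold, and 12 lay below it, 6 of them by at least 2-fold. Pde1c had 18.9 against 0.703, 2.06 and 3.50 FPKM, while Pde1a and Pde1b, of the same calmodulin-dependent phosphodiesterase family, had 1.52 against 42.9, 53.2 and 68.8 FPKM and 7.63 against 46.98, 51.2 and 140.5 FPKM. Pde5a, which degrades cGMP in Purkinje cells, had 18.3 against 2.31, 3.73 and 4.69 FPKM.

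Voltage-gated potassium channels were mostly low, with Kcnc1 and Kcng4 among the exceptions. Of 34 genes past the filter, of 36 listed, 7 lay above the Ct range, 4 of them by at least 2-fold, and 24 lay below it, 18 of them by at least 2-fold, and the median was -1.54. Only through Ct passed 15 of the 34. Kcnc1, the Kv3.1 subunit of granule cells, had 178 against 35.3, 45.1 and 49 FPKM. Kcnc2, Kv3.2 of cortical interneurons, had 0.714 against 17.4, 19.02 and 22.9 FPKM, and Kcnc4 lay inside the range, with 18.9 against 17.6, 21.5 and 28.3 FPKM. Kcnc2 was 0.198% of the summed FPKM of the 4 Kv3 genes here and 17.3% to 20.0% in Ct. Kcng4, a silent modulatory subunit, had 33.2 against 0.933, 1.21 and 2.11 FPKM.

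Among voltage-gated potassium channels, Kcnv1, given above, was furthest below, followed by Kcnf1, Kcnh3 and Kcnq5. Kcnf1, a silent subunit, had 0.145 against 25.9, 36.8 and 44.9 FPKM. Kcnh3, an EAG family channel of forebrain, had 0.574 against 38.4, 46.6 and 57.2 FPKM. Kcnq5, which carries the M current, had 0.31 against 14.6, 20.3 and 25.7 FPKM. None of these overlapped with Ct. Of 12 auxiliary subunits past the filter, of 13 listed, 5 lay above the Ct range, 0 of them by 2-fold, and 4 lay below it, 2 of them by at least 2-fold. Only through Ct passed 2 of these 12. Kcnip2, a partner of Kv4 channels, had 0.805 against 45.8, 59.4 and 75.7 FPKM, and Kcnip4, of the same family, had 61.5 against 27.3, 35.6 and 43.96 FPKM. Of the sodium-activated pair, Kcnt1 had 130.2 against 33.6, 40.3 and 50.7 FPKM and Kcnt2 had 0.126 against 6.74, 8.53 and 10.2 FPKM. Of 20 inward rectifier and tandem-pore channels past the filter, of 21 listed, 8 lay above the Ct range, 4 of them by at least 2-fold, and 6 lay below it, 5 of them by at least 2-fold. Only through Ct passed 4 of these 20. Kcnj12, Kir2.2, had 34.8 against 3.86, 4.62 and 7.77 FPKM, and Kcnk3, the acid-sensitive TASK-1, had 38.2 against 6.36, 7.90 and 9.30 FPKM, opposite in direction to Kcnj4.

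Sodium channels differed little in the main alpha subunits. Of 11 genes past the filter, of 16 listed, 5 lay above the Ct range, 0 of them by 2-fold, and 4 lay below it, 3 of them by at least 2-fold. Scn2a had 82.2 against 51.04, 59.96 and 72.1 FPKM, and Scn1a had 35.3 against 21.6, 27.7 and 33.3 FPKM, both above by less than 2-fold. Scn8a, the channel of Purkinje cell resurgent current, lay inside the range, with 37.1 against 32.1, 40.6 and 46.9 FPKM. Scn3a had 1.12 against 7.94, 9.32 and 11.5 FPKM. Among beta subunits, Scn2b had 102 against 55.99, 73.2 and 79.1 FPKM, and Scn3b had 0.846 against 31.8, 36.5 and 43.4 FPKM. Scn4b lay inside a wide Ct range, with 18.5 against 10.6, 20.5 and 60.5 FPKM. Fgf14 and Fgf13, intracellular partners of these channels, lay on opposite sides, with 30.3 against 12.7, 16.4 and 18.7 FPKM and 13.1 against 56.3, 60.3 and 70.6 FPKM. The alpha subunits Scn4a, Scn9a, Scn10a and Scn11a did not pass the filter.

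Of 17 calcium channel genes past the filter, of 18 listed, 5 lay above the Ct range, 0 of them by 2-fold, and 8 lay below it, 4 of them by at least 2-fold. Shares over all genes tested were 40.3% above and 32.1% below, and 6.16% and 7.68% by at least 2-fold. Among the 17, 1 passed the filter only through this library and 1 only through Ct. Cacna1a, the P/Q-type channel of Purkinje cells, had 96.98 against 36.8, 45.3 and 60.3 FPKM, above by less than 2-fold. Its partners in Purkinje cells, Cacna2d2 and Cacnb4, had 32.5 against 6.95, 9.05 and 17.2 FPKM and 135 against 67.05, 83.2 and 109 FPKM. Cacna1h, a T-type channel, had 0.977 against 14.4, 15.2 and 23.9 FPKM. Cacna2d1, Cacnb3 and Cacnb1 lay at least 2-fold below, at 14.3, 18.9 and 7.20 FPKM. Of 15 HCN and TRP genes, 4 lay above the Ct range, 2 of them by at least 2-fold, and 8 lay below it, 2 of them by at least 2-fold. Only through Ct passed 3 of these 15. Trpm3 had 34.6 against 2.99, 5.63 and 6.44 FPKM, and Trpc4 had 0.428 against 3.26, 4.77 and 5.56 FPKM.

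**Figure D5:**
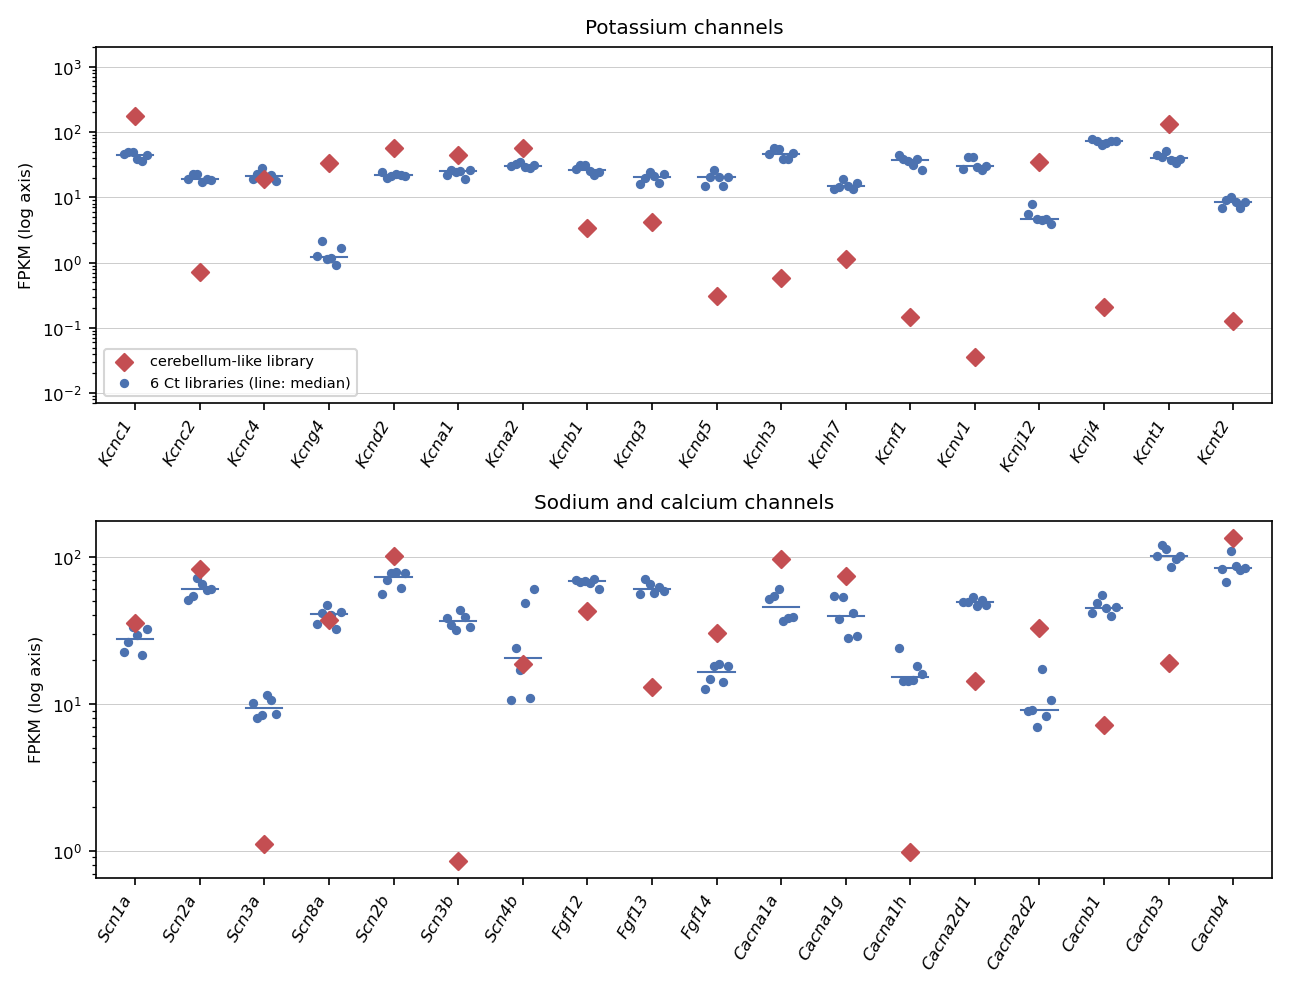
FPKM on a log axis of potassium channels (top) and of sodium and calcium channels (bottom). Red diamonds are the cerebellum-like library, blue points the 6 Ct libraries and blue lines their median. Kcnc1 and Kcng4 stand above the Ct points and Kcnc2, Kcnf1, Kcnv1, Scn3b and Cacna1h below them.

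Transmitter transporters and the release machinery differed between paralogs. Of 17 transporters, 6 lay above the Ct range, 3 of them by at least 2-fold, and 7 lay below it, 5 of them by at least 2-fold. Of 37 release genes, 11 lay above the Ct range, 6 of them by at least 2-fold, and 19 lay below it, 8 of them by at least 2-fold, with a median of -0.37. Syt2, the fast calcium sensor of hindbrain synapses, had 112 against 5.66, 11.7 and 14.1 FPKM, and Syt1, the forebrain sensor, had 122 against 367, 375 and 480.1 FPKM. Syt2 made up 47.8% of the pair here and 1.48% to 3.70% in Ct. Among the transporters, 1 passed the filter only through this library and 1 only through Ct. Among the 37 release genes, 3 passed only through Ct. Syt5 had 1.13 against 89.6, 106 and 109 FPKM, and Doc2a had 0.363 against 29.5, 35.9 and 54.8 FPKM. Unc13c, the Munc13 of granule cells, had 26.6 against 2.02, 2.83 and 7.04 FPKM.

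Genes mutated in spinocerebellar ataxias, inherited diseases of the cerebellum, were not all high. Of 29 genes past the filter, of 30 listed, 15 lay above the Ct range, 5 of them by at least 2-fold, and 9 lay below it, 2 of them by at least 2-fold, with a median of 0.48 against 0.08 over all genes. Itpr1 was high, as given above. Atxn1 had 4.14 against 7.01, 8.88 and 9.66 FPKM, and Atxn2 had 71.2 against 85.96, 92.3 and 103 FPKM. Ppp2r2b, a phosphatase subunit, had 16.9 against 57.9, 65.3 and 68.8 FPKM, and the prodynorphin gene Pdyn was low.

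Activity-regulated genes were lower than in cortex for most members. Of 16 genes, 0 lay above the Ct range, and 12 lay below it, 10 of them by at least 2-fold, with a median of -2.56. Passing only through Ct were 4 of the 16. Arc, an immediate-early protein of dendrites, had 4.84 against 49.1, 72.8 and 111 FPKM. Egr1 had 14.2 against 78.05, 118 and 129.6 FPKM, with 21.1 to 219 FPKM in the other 9 libraries, and Junb had 4.27 against 35.02, 45.6 and 59.5 FPKM. Fos lay inside the range, with 12.5 against 11.6, 23.2 and 42.1 FPKM, as did Dusp1, with 26.1 against 21.2, 23.7 and 35.98 FPKM. Housekeeping genes differed too: of 14, 3 lay above the Ct range, 0 of them by 2-fold, and 9 lay below it, 0 of them by 2-fold. Ywhaz had 204 against 374, 403 and 439 FPKM, and Actb had 444 against 717, 772 and 873 FPKM. With summed FPKM made equal, 7 of the 14 lay below and 3 above. The 37 mitochondrial genes took 17.6% of summed FPKM here and 19.3% to 23.8% in Ct.

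Of the genes at least 2-fold above, 748 (71.6%) were protein-coding, of those below 1118 (85.8%) and of all tested 13453 (79.3%). The protein-coding genes above had a median span of 28.8 kb, those below 32.1 kb and all tested 25.1 kb. Where spans overlap, the reads of 2 genes may not be separable, since whether strand was used in counting is not given in the sources used here. Among the genes this touches are Pcp2 with Pet100, Cbln1 with Gm2694, Zic1 with Zic4, and Ddn and Icam5 with antisense transcripts. Gm2694, opposite to Cbln1, had 145 against 3.48, 4.47 and 7.21 FPKM, and Pet100 had 6.55 against 6.11, 7.81 and 9.15 FPKM, each lower here than the marker it overlaps and, as a Ct median, higher than it.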

How the data were processed

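PolyA RNA was read from 1 end after NEBNext library preparation, on a NextSeq instrument, per the labels' protocols. The deposited files give 1 FPKM value per Ensembl gene and library. The submitters' processing notes name TopHat2 without a version. Which build, annotation and quantifier were used is not given here. Read totals were not analysed here, and depth was estimated only relative to other libraries, from the FPKM step of 1 read in the deposited values. Symbols and coordinates came from GENCODE M21 (GRCm38), which named 45139 of 46073 identifiers and left 934 unnamed. Promoters came from RefSeq on GRCm38.p6. Car8 and Cbln1 are not in that table.

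Levels were compared as log2(FPKM + 0.5) in Python 3.11.15 with pandas 2.3.3, numpy 2.4.6 and matplotlib 3.10.9. Genes needed 1 FPKM in the single library or as the Ct median. A call needed 2-fold beyond the nearest Ct library. The added 0.5 shrinks the distances of low genes. No statistical test was made. The script that applies this rule was checked on simulated data. The library, the gene lists and their members were chosen with earlier results of these data known.

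Named genes were the 5 markers, the 15 furthest on each side with at least 5 FPKM, up to 6 members outside and 3 inside the range per list, every subunit of 5 receptor, cerebellin and channel families, and Mir211, Trpm1 and Camk2a. Chosen after their values were seen were Ap4b1, Atxn1, Atxn2, Bhlhe22, Cacnb4, Cacng2, Calb2, Camk2b, Crh as a ligand, Crhr1, Etv5, Foxc1, Gabbr1, Gad2, Gm10190, Gm2694, Gna11, Gnaq, Mab21l1, Maf, Mbp, Neurod2, Nos1, Nptx1, Nrxn2, Pet100, Ppp2r2b, Ptpn22, Rbm33, Reln, Rsbn1, Slc17a7, Sos1, Syt1, Tyrobp, Unc13c, Zic4, Zic5, the 4 genes at the 2-fold line and some subunits drawn in the plots of receptors and channels. Results of some genes of these lists and families are not reported here. Alternatives tried were other pseudocounts, filters, scalings, gene classes and reference libraries, and leaving out each Ct library.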

Additional observations from a re-analysis of the deposited data

Results flagged for a closer look

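Chance alone sets about 1 library in 20 groups apart by the measure used here, in which the gap of the highest or lowest library to its nearest neighbour takes most of the range of the group. In the labelled dTg group of 7, the mean log2(FPKM + 0.5) of the 5 cerebellar markers was 8.91 in replicate 1, the library described above, and the gap to the next library took 0.760 of the range. The library was selected on these markers, so its place was fixed by that choice and the chance rate does not apply to it. Among 54 gene lists, 2 had a Ct library apart in summed FPKM: Ct replicate 6 for choroid plexus and ependyma, at 106 FPKM, and the same replicate for nicotinic receptors, at 32.5 FPKM.

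Of 239 genes named, 11 had 1 Ct library apart. Ct replicate 6 had 86.7 FPKM of Ttr and 0.388 of Iltifb, and Ct replicate 5 had 0.316 of Gabra6. Ct replicate 3 had 60.7 FPKM of Tbr1, 119.8 of Slc30a3, 6.93 of Htr5a and 424 of Gabbr1. Ct replicate 2 had 3.11 FPKM of Pcp2 and 77.9 of Gria3, Ct replicate 1 had 398 of Gad1, and Ct replicate 4 had 17.2 of Cacna2d2. Of these genes, Gad1 lay inside the Ct range, which its replicate 1 sets at the top, and the others lay outside it.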

How the results depend on the processing

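No paired analysis was possible because the values come from 1 library and from no test. With 1 library the cerebellum-like side has no replicate error, and genes near 1 FPKM rest on few reads. All 4 counts of genes stayed within 1.5 times their value under each alternative. With summed FPKM made equal, the larger count passed from genes below to genes above, 1412 against 1272 of 18161 genes tested. Without each Ct library in turn, genes at least 2-fold above numbered 1085 to 1170, and those below 1325 to 1381. With all 15 other libraries as the range they numbered 779 and 1006. The filter then used the median of those 15, and 16891 genes passed. Of 26 list medians printed, 1 turned: endothelial and mural genes were at 0.026 with summed FPKM made equal. The cause of the other moves was not tested.

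A pseudocount of 0.1 FPKM gave medians of 2.80 for Purkinje cells, 4.07 for granule cells, -4.12 for excitatory forebrain neurons, -1.84 for deep layers, -4.21 for forebrain GABA interneurons, -6.04 for telencephalic and 4.15 for hindbrain factors, -4.78 for muscarinic and -2.95 for serotonin receptors, -3.66 for neuropeptides and -1.91 for Kv channels. A pseudocount of 1 FPKM gave 2.46 for Purkinje cells, 1.72 for cerebellar interneurons, -3.51 for excitatory neurons, -2.41 for forebrain GABA interneurons, -3.36 for telencephalic and 2.79 for hindbrain factors, -3.45 for muscarinic and -1.69 for serotonin receptors, -2.31 for neuropeptides, -1.28 for Kv channels and 0.45 for ataxia genes. No filter gave 1.70 for cerebellar interneurons, 2.46 for hindbrain factors, -3.81 for muscarinic and -1.92 for serotonin receptors and 0.31 for ataxia genes. A filter of 5 FPKM gave 1.43 for cerebellar interneurons, -1.15 for upper layers, -3.54 for forebrain GABA interneurons, -4.41 for telencephalic and 3.64 for hindbrain factors, -4.23 for muscarinic receptors, -3.62 for neuropeptides, -1.37 for Kv channels and -2.18 for activity-regulated genes.

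Summed FPKM made equal gave 2.95 for Purkinje cells, 4.14 for granule cells, 2.38 for cerebellar interneurons, 1.75 for Bergmann glia, -3.42 for forebrain GABA interneurons, 0.53 for astrocytes, -4.62 for telencephalic and 3.74 for hindbrain factors, -1.34 for auxiliary subunits, -1.21 for metabotropic and -4.17 for muscarinic receptors, -3.36 for neuropeptides, 2.40 for the Purkinje cell phospholipase cascade, -0.20 for release genes and 0.66 for ataxia genes. The run with equal sums also raised all values beside the added 0.5 and the filter. Its medians therefore mix the scaling with a smaller relative pseudocount and filter, and their parts were not tested. Levels matched by the median ratio gave 2.73 for Purkinje cells. All 15 other libraries as reference gave 4.02 for granule cells, 2.01 for cerebellar interneurons, -1.94 for deep layers, -2.97 for forebrain GABA interneurons, -1.32 for auxiliary subunits, 2.40 for the Purkinje cell phospholipase cascade, -1.40 for Kv channels and -0.26 for release genes. Without each Ct library in turn the medians ran from 2.70 to 2.79 for Purkinje cells, 3.64 to 4.00 for granule cells, -3.28 to -3.05 for forebrain GABA interneurons, -4.46 to -4.19 for telencephalic factors, -3.18 to -2.98 for neuropeptides and 2.20 to 2.26 for the Purkinje cell phospholipase cascade.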

Other observations

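Lists for structures and gene groups not described above are given as counts only. Over all genes tested, 40.3% lay above the Ct range and 32.1% below it, and 6.16% and 7.68% by at least 2-fold. Passing the filter only through Ct were 4 of the 10 hippocampal, 4 of the 9 olfactory bulb and 2 of the 3 glycine receptor genes. Of 10 hippocampal genes past the filter, of 14 listed, 3 lay above the Ct range, all of them by at least 2-fold, and 6 lay below it, all of them by at least 2-fold. Of 9 olfactory bulb genes past the filter, of 10 listed, 0 lay above the Ct range, and 4 lay below it, 0 of them by 2-fold. Of 3 glycine receptor genes past the filter, of 5 listed, 0 lay above the Ct range, and 2 lay below it, all of them by at least 2-fold. Of 16 chloride channel and gap junction genes past the filter, of 17 listed, 7 lay above the Ct range, 1 of them by at least 2-fold, and 4 lay below it, 2 of them by at least 2-fold. Of 9 genes of perineuronal nets and the hyaluronan matrix past the filter, of 14 listed, 3 lay above the Ct range, 1 of them by at least 2-fold, and 4 lay below it, 2 of them by at least 2-fold.

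Small amounts of the same cerebellar genes were listed in 2 other libraries. In dTg replicate 7, Cbln3 had 4.72 FPKM, Gabra6 4.10, Cnpy1 3.50 and Fat2 0.734. In dTg replicate 4 the same genes had 2.87, 2.58, 2.70 and 0.449 FPKM. In each of the other 13 libraries Cbln3 was at most 0.413 FPKM and Gabra6 at most 0.316 FPKM. Over the 15 genes furthest above the Ct range, dTg replicate 7 held 0.585% to 1.95% of the level of the cerebellum-like library, with a median of 1.34%, and dTg replicate 4 held 0.373% to 2.35%, with a median of 0.858%. In the other 13 libraries the medians were 0.106% to 0.439%, and the highest value of a single gene was 0.820% to 4.65%, with 4.65%, 4.02% and 3.11% in dTgDox replicates 1, 2 and 3. The genes were chosen for being high in the cerebellum-like library, so these values are a description, and their source was not tested.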
